A study of Mus musculus with 5 samples.

Results

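Endothelial cells of the atherosclerotic aortic arch that carried Klk10 or Stmn2 transcripts were examined in mice with and without Oasl1. Cells with transcripts of Plvap, Selp or Ccl21a, or of several capillary genes, were left out. A cell was counted as a Klk10/Stmn2 cell if it held unique molecular identifiers (UMIs, single captured mRNA molecules) of at least 3 of the 5 endothelial genes Cdh5, Pecam1, Ptprb, Egfl7 and Ramp2, and of Klk10 or Stmn2. It also had to hold no UMI of the leukocyte genes Ptprc and Cd68, of Plvap, Selp or Ccl21a, and UMIs of fewer than 2 of the 4 capillary genes Fabp4, Rgcc, Gpihbp1 and Sprr1a. The cells were thus chosen by their measured expression, and what the rule used is given below as a description, with no test. It selected 282 of 18260 cells, which were 19.45% of the 1450 endothelial cells. Of the 282, 27 held UMIs of 1 of the 4 capillary genes.

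The tissue was the aortic arch of mice that lacked Apoe and had eaten normal chow for 28 weeks, and live cells were sorted with DAPI and sequenced from the 3′ end of the mRNA in droplets. Of the 5 libraries, 2 were labelled Oasl1+/+Apoe-/- and are called Apoe-/- here, and 3 were labelled Oasl1-/-Apoe-/-. All mice of both groups therefore lacked Apoe, which makes mice prone to atherosclerosis, and the deletion of Oasl1 was present in all cells of the animal and not in the endothelium alone. By the labels cells of 6 mice were pooled, and nothing says that the libraries of a group came from separate pools, so the p-values below measure the spread between libraries, which may be technical. The libraries held 3212 to 4338 cells with medians of 4495 to 5186.5 UMIs. Klk10/Stmn2 cells numbered 91 and 76 in the Apoe-/- libraries and 40, 43 and 32 in the libraries labelled Oasl1-/-Apoe-/-. Their median depth was 2424 and 2355 UMIs per cell in the former and 3057, 2759 and 2811 in the latter, within a range of 751 to 7119. Levels are given as UMIs per 10000 UMIs of a cell (CP10K), averaged over the cells of a library. Oasl1 itself gave 2 UMIs in the 282 cells, 1 each in replicates 2 and 3 labelled Oasl1-/-Apoe-/-. The deletion removes the promoter and the second exon while the tags come from the 3′ end, so this number does not check the labels. Over all cells, Oasl1 gave 43 UMIs in 36 of 8416 cells of the Apoe-/- libraries. Under the other label it gave 871 UMIs in 576 of 9844 cells, thus more where the gene was labelled as deleted. The source of these reads was not tested, and the labels are used as given.

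The endothelium lines the lumen and converts the friction of flowing blood into gene expression. Laminar flow maintains the transcription factors Klf2 and Klf4 and the nitric oxide synthase Nos3, which keep the vessel relaxed and its surface poor in adhesion molecules, and Klk10 is a secreted kallikrein-related peptidase known as a product of endothelium under stable flow. Interferons, among them those made by lymphocytes and macrophages of the plaque, induce antigen presentation genes in endothelial cells: class I molecules (heavy chains such as H2-K1 and H2-D1, with the light chain B2m) and, with interferon gamma, class II molecules (H2-Aa, H2-Ab1 and H2-Eb1, with the invariant chain Cd74). OASL1, an interferon-induced protein of the oligoadenylate synthetase family, is known to restrain translation of the interferon regulatory factor Irf7.

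Antigen presentation genes were among the groups with several called genes in 1 direction, and the sequences just upstream of their starts show what some of them share. Of 10 genes looked for (6 class I and class II genes, Ifi27l2a, Ifitm3, Klk10 and Stmn2), 7 had a start in the RefSeq promoter table of build GRCm38.p6. The 150 bases before the start are printed 5′ to 3′ on the strand of the gene, with matches of the CCAAT box (CCAAT or its reverse complement ATTGG) and of an interferon-stimulated response element (GAAA, any pair of bases and GAAA again, on either strand) in capitals. The motifs do not overlap each other.
H2-Aa (chr17:34287824-34287973, minus strand): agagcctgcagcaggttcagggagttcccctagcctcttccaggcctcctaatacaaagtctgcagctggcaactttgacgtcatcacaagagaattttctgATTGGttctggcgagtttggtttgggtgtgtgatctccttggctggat
H2-Eb1 (chr17:34305717-34305866, plus strand): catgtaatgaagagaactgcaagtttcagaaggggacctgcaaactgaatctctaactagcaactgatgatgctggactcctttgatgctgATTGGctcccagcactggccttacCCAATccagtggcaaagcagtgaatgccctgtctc
H2-D1 (chr17:35262944-35263093, plus strand): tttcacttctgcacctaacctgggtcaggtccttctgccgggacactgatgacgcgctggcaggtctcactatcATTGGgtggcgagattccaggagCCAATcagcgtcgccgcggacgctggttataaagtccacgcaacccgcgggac
B2m (chr2:122147537-122147686, plus strand): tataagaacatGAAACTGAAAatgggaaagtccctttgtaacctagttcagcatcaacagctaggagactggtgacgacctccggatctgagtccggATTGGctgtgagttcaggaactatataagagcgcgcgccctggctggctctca

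The CCAAT box, part of the conserved upstream block of class I and class II genes, began 48 bases before the start of H2-Aa, 59 and 35 bases before that of H2-Eb1, 76 and 53 bases before that of H2-D1 and 53 bases before that of B2m. It was also present in the windows of both annotated starts of H2-K1 and absent from those of Ifitm3 and Klk10. Of all 32851 starts searched, 24.5% held a CCAAT box in the same window. The interferon-stimulated response element, in the exact form given above, was found in B2m, 139 bases before the start, and in 1.59% of all starts. Other forms of the element were not searched, so the lack of a match in the other windows does not show that it is absent there. Such matches describe these letters and not the binding of a factor.

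The label of the cells was checked against markers that the rule did not read. Cytl1, a secreted cytokine-like protein, Gkn3, a gastrokine, and Adh7, an alcohol dehydrogenase, are such markers. A UMI of Cytl1 was present in all 282 cells, of Gkn3 in 62.1% (95% Wilson interval 56.3 to 67.5) and of Adh7 in 57.8% (52.0 to 63.4), against 5.87%, 0.206% and 0.0447% of the 11183 smooth muscle cells of the same libraries, which should lack them and were deeper. In the other 1168 endothelial cells the shares were 90.3%, 52.9% and 44.8%, so these markers check that the cells were endothelial and do little to set them apart from the other endothelial cells. Of the genes in the rule, Klk10 was seen in 61.4% and Stmn2 in 77.3% of the cells, and in smooth muscle cells in 0.0894% and 0.125%. The intervals cover counting error only.

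The threshold of the rule was low: 78 of the 282 cells entered with a single UMI of Klk10 and Stmn2 together, while 204 had at least 2, up to 24. Endothelial genes were better sampled, with 145 cells holding all 5, 101 holding 4 and 36 holding 3, and 8 further cells with 2 met all other conditions. Plvap and Selp removed most candidates. Of 724 endothelial cells with Klk10 or Stmn2, 440 were left out for Plvap or Selp, 181 of them on a single UMI, and these had a median of 3686 UMIs against 2543 in the Klk10/Stmn2 cells. Of all barcodes, 165 were found in more than 1 library, and 10 of the Klk10/Stmn2 cells carried one of them. Klk10 and Stmn2 were both seen in 39.9% ± 4.25 (SD, n = 2) of the Klk10/Stmn2 cells of the Apoe-/- libraries and in 36.0% ± 5.38 (SD, n = 3) of those under the other label.

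As a description of how these cells differed from the other 1168 endothelial cells of their own library, levels were compared library by library. Cytl1 stood at 177 ± 15.7 CP10K (SD, n = 5) against 113 ± 14.4, Gkn3 at 8.28 ± 1.70 against 5.39 ± 0.863 and Adh7 at 5.62 ± 1.44 against 3.38 ± 1.28. Among the genes outside the rule, those with the largest difference held in all 5 libraries included Emp2 (an epithelial membrane protein, 6.09 ± 2.03 against 3.30 ± 0.867), Podxl (podocalyxin, a sialomucin of the luminal surface, 3.48 ± 0.476 against 2.11 ± 0.119) and Ptgs1 (cyclooxygenase 1, which leads to prostacyclin, 2.39 ± 0.723 against 1.21 ± 0.217). Cmklr1, the chemerin receptor, had 1.70 ± 0.609 against 0.810 ± 0.272, Scd1, a fatty acid desaturase, 1.09 ± 0.163 against 0.590 ± 0.134, and Fam107a 1.13 ± 0.170 against 0.535 ± 0.114. Mknk2, Rhpn2, Kif26a, Ptprr, Epha4, Dab2ip, Nos1ap and Tsc22d1 completed the list of 15 with Cytl1. The lowest were the acute phase protein Serpina3n, at 0.0113 CP10K against 0.945, the matrix protein Tgfbi, at 0.0119 against 0.625, the growth factor midkine (Mdk), at 0.0197 against 0.752, Marcksl1, at 0.125 against 1.30, and the actin bundler Fscn1, listed at 0 against 0.520. The other endothelial cells include those set aside for Plvap and Selp, so these differences follow in part from the rule. In the Klk10/Stmn2 cells with Plvap or Selp, Podxl stood at 3.385 CP10K, Emp2 at 4.587 and Ptgs1 at 1.493. In endothelial cells without Klk10, Stmn2, Plvap, Selp, Ccl21a or 2 capillary genes, Serpina3n stood at 0.0197 and Fscn1 at 0. Some of these traits were thus shared with the nearest cells.

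**Figure D1:**
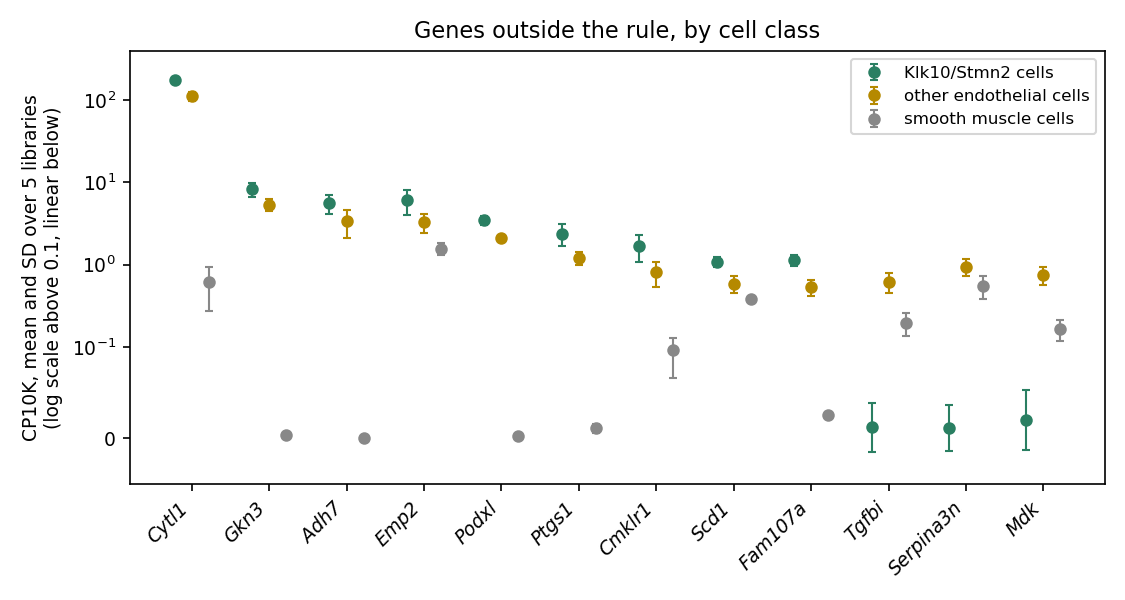
Mean level (CP10K, log scale above 0.1 and linear below) of 12 genes that the rule did not use, in Klk10/Stmn2 endothelial cells, the other endothelial cells and smooth muscle cells; points are means and bars SDs over the 5 libraries. Cytl1 lay at 177 CP10K in the Klk10/Stmn2 cells and at 113 in the other endothelial cells, and Serpina3n, Tgfbi and Mdk were near 0 in the former.

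Klk10/Stmn2 cells made up a smaller share of the endothelium in the libraries labelled Oasl1-/-Apoe-/-, by a margin that the design could not test at 0.05. They were 23.6% and 19.7% of the endothelial cells of the Apoe-/- libraries and 16.7%, 18.3% and 15.6% of those labelled Oasl1-/-Apoe-/-. The mean was 21.7% ± 2.79 (SD, n = 2) against 16.9% ± 1.35 (SD, n = 3). The groups did not overlap, and the difference of -4.78 percentage points had an exact two-sided permutation p of 0.1, the smallest that 2 against 3 libraries allow. Of all cells they were 1.99% ± 0.339 (SD, n = 2) against 1.17% ± 0.174 (SD, n = 3), a difference of -0.823 with the same exact permutation p of 0.1.

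The share of the endothelium depended on which cells stood beside them and on which were counted in. Relative to the endothelial cells without Plvap, Selp, Ccl21a or 2 capillary genes, the Klk10/Stmn2 cells were 58.0% ± 7.94 (SD, n = 2) against 63.9% ± 6.22 (SD, n = 3). This was the opposite direction (5.91 percentage points, exact permutation p = 0.4). Among all endothelial cells, the capillary-like cells were 1.17% of endothelial cells in the Apoe-/- libraries and 5.35% in those labelled Oasl1-/-Apoe-/- on average. Endothelial cells with Ccl21a, also part of the denominator, numbered 0 in the Apoe-/- libraries and 16 in the others. Plvap/Selp cells without Klk10 and Stmn2 were 30.1% and 37.3%, and endothelial cells without any of these genes 15.7% and 9.64%. When only Klk10/Stmn2 cells free of Myh11, Dcn, Lyz2 and haemoglobin UMIs were counted, the shares were 9.86% ± 1.85 (SD, n = 2) and 9.77% ± 1.24 (SD, n = 3). The denominator was still all endothelial cells, with or without such UMIs. A haemoglobin UMI alone was present in 61 of 167 Klk10/Stmn2 cells of the Apoe-/- libraries and in 15 of 115 of the others. This restriction thus bore more on the Apoe-/- libraries, and the 2 shares cannot tell whether the difference lies in such cells. With the rule applied to cells thinned to 1000 UMIs the shares were 29.8% and 18.9% against 17.2%, 22.7% and 19.5%, and the groups overlapped (exact permutation p = 0.5). Without Apoe-/- replicate 1 the difference was -2.81 percentage points. For the share of all cells the difference was -0.236 percentage points with the same restriction and -4.42 when smooth muscle cells were left out of the denominator, and the groups stayed apart in either case.

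**Figure D2:**
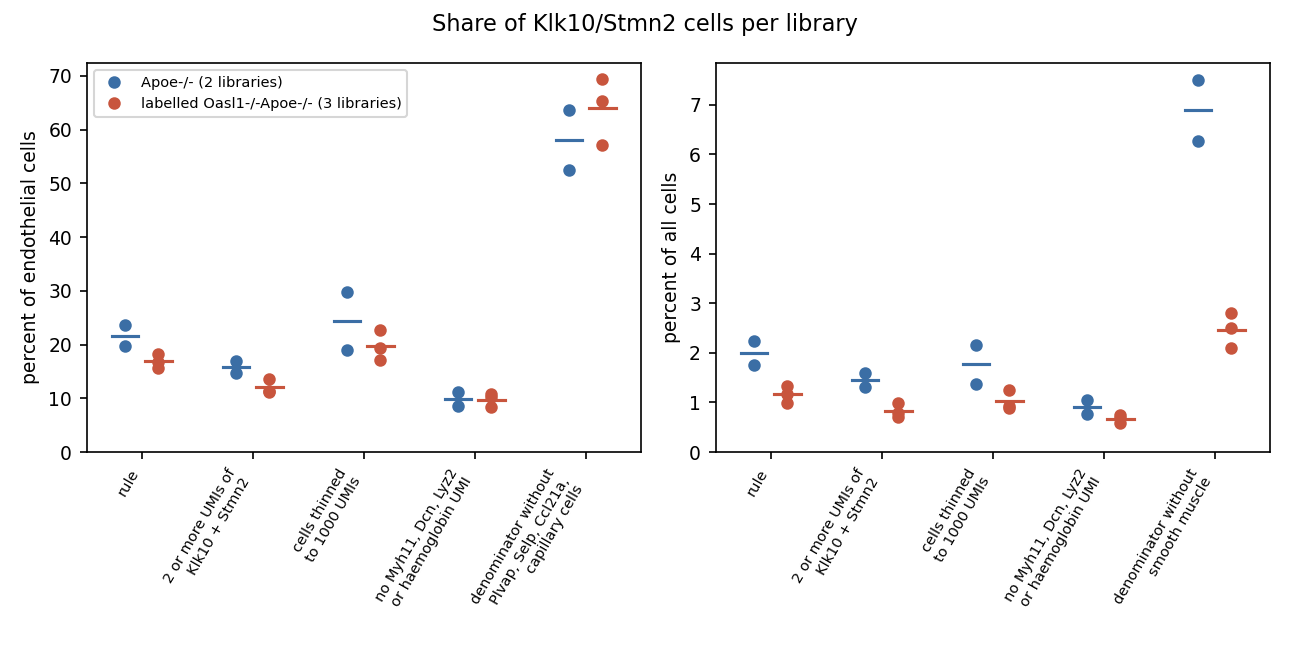
Klk10/Stmn2 cells as a percent of endothelial cells (left) and of all cells (right) in each library (points) with the group mean (line), under the rule and under other gates and denominators. The groups separated in the left panel under the rule (21.7% against 16.9%). They stood at 9.86% and 9.77% when only Klk10/Stmn2 cells free of Myh11, Dcn, Lyz2 and haemoglobin UMIs were counted, over all endothelial cells.

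In the Klk10/Stmn2 cells, class I and class II antigen presentation genes and the interferon-induced Ifi27l2a were higher in the libraries labelled Oasl1-/-Apoe-/-, while endothelin 1 (Edn1), the mRNA-destabilising Zfp36, the calcification inhibitor Mgp and a set of smooth muscle transcripts were lower. Of 7637 genes with a mean of at least 0.1 CP10K, 23 (0.301%) had a Benjamini-Hochberg adjusted p under 0.05 in limma, 13 (0.170%) higher and 10 (0.131%) lower. Fabp4, 1 of the 13, is a gene of the rule and is not counted further. The log2 differences are of log2(mean CP10K + 0.1), as libraries labelled Oasl1-/-Apoe-/- minus Apoe-/-, which understates changes of low genes. Their median over all genes was -0.04. Limma's estimate of the spread drew on 118 prior degrees of freedom from all genes against 3 from the gene itself, so that a gene with libraries far apart could still pass.

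Of the list of interferon gamma inducible GTPases and antigen presentation genes, 28 of 32 passed the filter. Of these, 7 were called higher, against 0.170% of all genes, none was lower, and 26 had a positive difference. The median was 0.79, against -0.04 over all genes. In 18 of the 28 every library labelled Oasl1-/-Apoe-/- lay above both Apoe-/- libraries, against 9.60% of all genes. The list had been compiled with results of these data known.

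Cd74, the invariant chain that guides class II molecules, gave 0.580 and 0.566 CP10K in the Apoe-/- libraries and 5.56, 5.0 and 7.52 CP10K in those labelled Oasl1-/-Apoe-/-. All of the latter lay above both of the former, and the log2 difference was 3.16 ± 0.265 (SE), adjusted p = 2.44e-18. The class II alpha chain H2-Aa (chr17:34282744-34287823, minus strand, GRCm38) gave 0.266 and 0.218 CP10K against 1.53, 3.43 and 4.13, with a log2 difference of 3.09 ± 0.355 and an adjusted p of 3.71e-11. The beta chain H2-Eb1 (chr17:34305867-34316674, plus strand) gave 0.158 CP10K in Apoe-/- replicate 1, was listed at 0 in replicate 2, and gave 1.47, 1.68 and 3.18 under the other label. Its 3 UMIs in 167 cells became 68 UMIs in 115 cells (log2 difference 3.70 ± 0.435, adjusted p = 7.92e-11). H2-Ab1 (chr17:34257689-34269419, plus strand), the other beta chain, gave 0.0967 and 0.556 CP10K against 1.58, 1.82 and 2.31, with a log2 difference of 2.46 ± 0.389 and an adjusted p of 4.22e-06, and lost its call without Apoe-/- replicate 1 or without replicate 3 labelled Oasl1-/-Apoe-/-. H2-DMa, which loads peptide onto class II molecules, gave 0.118 and 0 against 0.332, 0.499 and 0.924 CP10K without passing the threshold (adjusted p = 0.0951).

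The class II transcripts were spread over many cells. At least 1 UMI of Cd74, H2-Aa, H2-Ab1 or H2-Eb1 was present in 13 of 91 and 17 of 76 Klk10/Stmn2 cells of the Apoe-/- libraries, and in 25 of 40, 27 of 43 and 22 of 32 of those labelled Oasl1-/-Apoe-/-. Pooled by label this was 18.0% (95% Wilson interval 12.9 to 24.5) against 64.3% (55.3 to 72.5). These intervals cover counting error and not the spread between libraries, and depth was not equalised for this share. UMIs of at least 2 of the 4 genes were present in 4.19% against 36.5%. Smooth muscle cells, at higher depth, also differed: a Cd74 UMI was present in 8.95% of them in the Apoe-/- libraries and in 25.8% in those labelled Oasl1-/-Apoe-/-, against 10.8% and 38.3% of the Klk10/Stmn2 cells. With each cell thinned to 1000 UMIs the shares with Cd74 were 3.29% and 8.23% in smooth muscle cells and 6.75% and 25.2% in Klk10/Stmn2 cells. In the Apoe-/- libraries the share with H2-Aa was 4.19% in Klk10/Stmn2 cells and 5.66% in smooth muscle cells, and under the other label it was 34.8% and 13.7%. At full depth the share with H2-Aa in the Klk10/Stmn2 cells of the Apoe-/- libraries was thus not above that in the deeper smooth muscle cells. With cells thinned to 1000 UMIs the 2 shares were 2.45% and 2.37%, and free RNA was not estimated.

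Macrophage transcripts were few but more frequent under the same label. The summed level of 10 macrophage markers was 0.641 and 0.741 CP10K in the Klk10/Stmn2 cells of the Apoe-/- libraries and 1.81, 1.21 and 2.09 in the others. Adgre1 and Mrc1 were listed at 0 in all 282 cells, Csf1r gave 1 UMI, 4 of the markers passed the filter and none of these was called. A UMI of Lyz2, C1qa, C1qb or Csf1r was present in 10.8% and 27.0% of the cells. In the cells that held no UMI of these 4 genes, Cd74 gave 0.668 and 0.615 CP10K against 2.87, 4.84 and 6.01, and H2-Aa gave 0.306 and 0.194 against 1.37, 3.95 and 3.17. The part of macrophage RNA in the class II values was not tested, and cells with no such UMI at this depth may hold it. Of the 74 cells with a class II UMI under the Oasl1-/-Apoe-/- label, 54 held none of the macrophage UMIs.

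Class I genes were abundant in both groups and were higher by a smaller factor. The light chain B2m (chr2:122147686-122153083, plus strand) gave 26.9 and 23.8 CP10K against 51.0, 55.0 and 58.6, and thus 25.3 ± 2.20 (SD, n = 2) against 54.9 ± 3.84 (SD, n = 3). The log2 difference was 1.11 ± 0.111, adjusted p = 3e-14. H2-K1 gave 9.54 and 8.82 against 14.4, 16.9 and 20.2 CP10K (log2 difference 0.88 ± 0.153, adjusted p = 4.46e-05). H2-D1 gave 19.7 and 15.7 against 26.8, 30.1 and 32.8 CP10K (0.76 ± 0.129, adjusted p = 2.95e-05). Without replicate 3 labelled Oasl1-/-Apoe-/- neither heavy chain was called, and H2-D1 was not called without Apoe-/- replicate 2. These heavy chains share sequence with the H2-Q and H2-T genes, so reads may be split among them. H2-Q4, H2-Q6, H2-Q7, H2-T22 and H2-T23 had log2 differences from 0.58 to 1.43 with no overlap between the groups and did not pass the threshold. Of all genes 9.60% were higher without overlap. In smooth muscle cells, not tested, B2m gave 9.39 and 8.40 against 18.6, 17.8 and 18.85 CP10K. There H2-K1 gave 1.35 and 1.24 against 2.31, 2.41 and 2.45, and H2-D1 2.65 and 2.46 against 5.13, 4.71 and 4.75. In the Klk10/Stmn2 cells the peptide transporter Tap1 had a log2 difference of -0.23 (95% interval -1.46 to 1.0). The immunoproteasome subunit Psmb8 had one of 0.54 (0.02 to 1.06) without an adjusted p under 0.05. Among the interferon gamma inducible GTPases no member was called. Gbp3 came nearest, with 0.157 and 0.447 against 0.876, 1.33 and 1.03 CP10K (log2 difference 1.64, adjusted p = 0.0628).

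**Figure D3:**
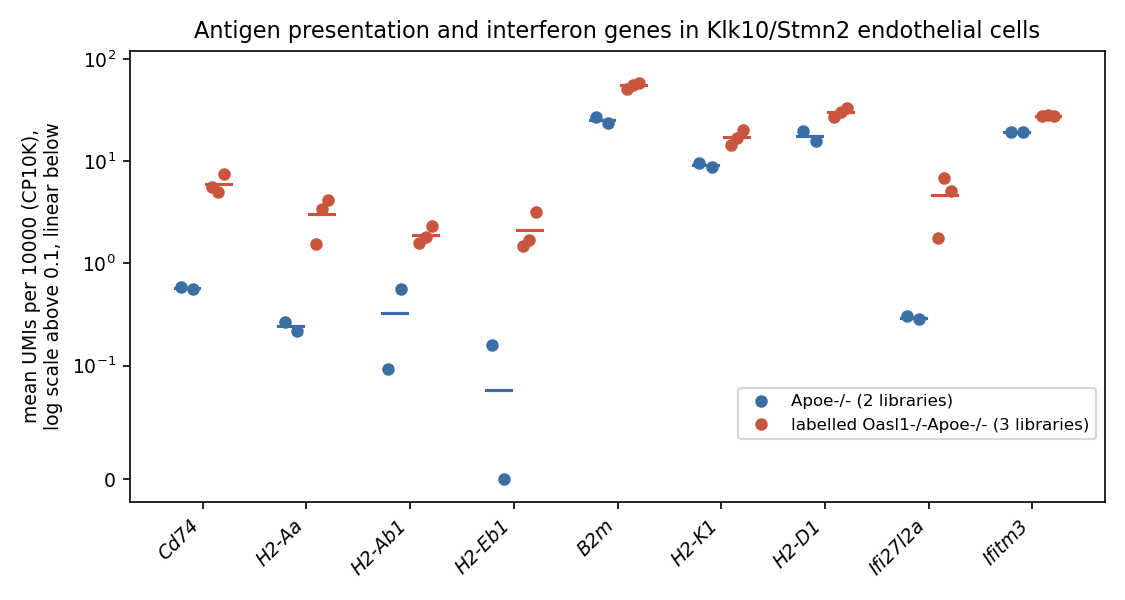
Mean level (CP10K, log scale above 0.1 and linear below) of class II genes, class I genes, Ifi27l2a and Ifitm3 in Klk10/Stmn2 endothelial cells; points are libraries and lines group means, for 2 Apoe-/- libraries and 3 labelled Oasl1-/-Apoe-/-. For all 9 genes each library labelled Oasl1-/-Apoe-/- lay above both Apoe-/- libraries, as with Cd74 at 5.0 to 7.52 against 0.566 and 0.580.

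Of the 40 type I interferon response genes, 28 passed the filter, with a median log2 difference of 0.49. Of these, 2 were called higher, against 0.170% of all genes, and none lower. Ifi27l2a (chr12:103442167-103443680, minus strand), a small hydrophobic interferon-induced protein, gave 0.303 and 0.282 CP10K against 1.77, 6.89 and 5.15, the lowest of the latter in replicate 1. The log2 difference was 3.38 ± 0.332, adjusted p = 2.03e-14, and UMIs were present in 3.59% against 42.6% of the cells. Smooth muscle cells showed 4.62% against 35.8%, and whether that difference equals the one in the endothelium was not tested. Ifitm3, a restriction factor of virus entry, gave 19.2 and 19.1 CP10K against 27.5, 28.1 and 27.5 (log2 difference 0.53 ± 0.127, adjusted p = 0.0231), and the related Ifitm2 had a log2 difference of -0.01 without passing the threshold. Ifitm3 gave 3.55 and 3.32 against 8.32, 8.56 and 8.50 CP10K in smooth muscle cells, which were not tested. Without any 1 of the 5 libraries Ifitm3 was not called in the Klk10/Stmn2 cells. For 13 of the 28 genes the groups did not overlap and the libraries labelled Oasl1-/-Apoe-/- were higher, against 9.60% of all genes, and for 3 lower, against 10.8% of all genes, a share near the background. Among the former, not called, were the interferon-induced RNA-binding protein Ifit3 (0.164 and 0.0626 against 0.821, 0.564 and 0.747 CP10K, adjusted p = 0.0628), the tetherin gene Bst2 (3.49 and 3.05 against 5.24, 5.17 and 5.20) and the ISG15 protease Usp18 (listed at 0 in both Apoe-/- libraries against 0.309, 0.298 and 0.411). Irf7 gave 6 UMIs in each group. Isg15 had a log2 difference of 0.03 (95% interval -0.77 to 0.82). Ly6a, an interferon-responsive surface protein that belongs to neither list, gave 16.5 and 15 against 20.6, 25.1 and 24.4 CP10K (0.56 ± 0.135, adjusted p = 0.0231), and was called without replicate 1 labelled Oasl1-/-Apoe-/- but not without any other library.

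The genes of laminar flow and nitric oxide did not pass the threshold. Of 27 listed genes, 22 passed the filter, none was called, and the median log2 difference was 0.04. Nos3 gave 2.46 and 3.04 CP10K in the Apoe-/- libraries and 2.96, 3.48 and 3.01 in those labelled Oasl1-/-Apoe-/-. The groups overlapped, and the log2 difference was 0.19 with a 95% interval of -0.29 to 0.68. Klf2, at 46.0 and 47.7 against 40.7, 49.2 and 58.9 CP10K, had a log2 difference of 0.07 (-0.15 to 0.28), and Klf4, at 11.7 and 11.9 against 11.8, 12.8 and 11.2, one of 0.01 (-0.30 to 0.32). Hsp90ab1, a chaperone of the synthase, had a log2 difference of -0.23 (-0.51 to 0.05).

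No adhesion molecule passed the threshold in these cells. The rule had left out 440 of 724 endothelial cells with Klk10 or Stmn2 for Plvap or Selp. This result does not cover those 440 cells. Of 20 genes, 11 outside the rule passed the filter, 2 had a positive difference, and the median was -0.15. Vcam1 gave 9.47 and 8.28 against 7.27, 8.15 and 6.37 CP10K, all libraries labelled Oasl1-/-Apoe-/- being lower (log2 difference -0.29, 95% interval -0.64 to 0.06). Icam1 (-0.12, -0.57 to 0.33) and Icam2 (-0.13, -0.50 to 0.23) overlapped between the groups. Selplg, Il6 and Tnf gave no UMI in the 282 cells, Il1b and Ccl2 1 each, and Sele 1 UMI in the Apoe-/- and 6 UMIs in the other libraries, so no difference was detectable at this depth. Of 20 cytokine and chemokine genes, 6 passed the filter and none was called. Cxcl1, a neutrophil-attracting chemokine, had 5.53 and 1.96 against 3.29, 0.863 and 0.827 CP10K (log2 difference -1.24, adjusted p = 0.0578).

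**Figure D4:**
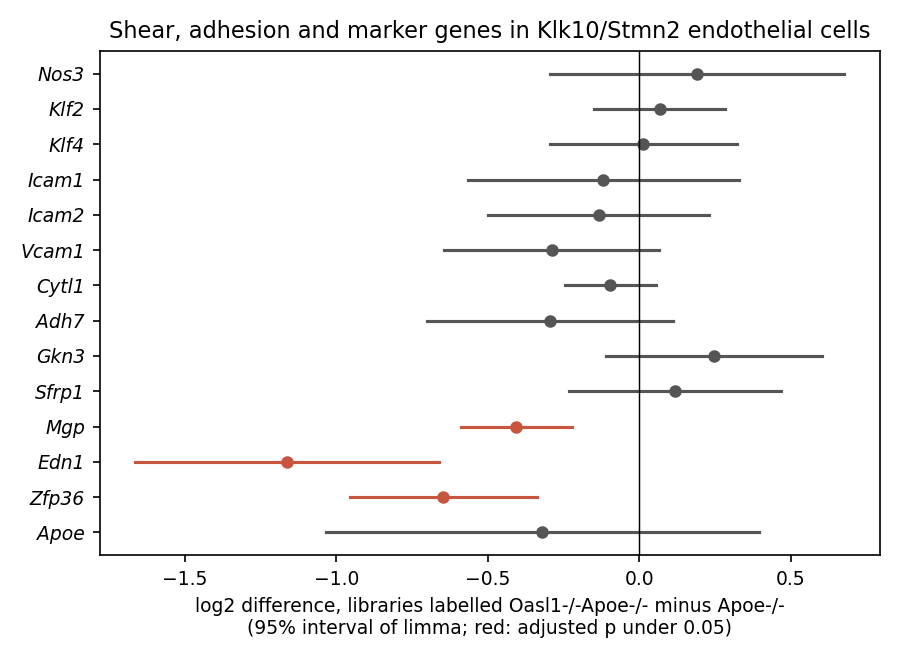
Log2 difference between libraries labelled Oasl1-/-Apoe-/- and Apoe-/- libraries in Klk10/Stmn2 endothelial cells for 14 genes, with limma's 95% interval as a line. The intervals of Nos3, Klf2, Klf4, Icam1, Icam2 and Vcam1 include 0, and those of Edn1, Zfp36 and Mgp (red) lie below it.

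The marker genes outside the rule did not pass the threshold. Cytl1 gave 185 ± 27.8 CP10K (SD, n = 2) against 172 ± 3.15 (SD, n = 3), a log2 difference of -0.10 (95% interval -0.25 to 0.05). Adh7 had a log2 difference of -0.29 (-0.70 to 0.11), Gkn3 of 0.25 (-0.11 to 0.60) and Sfrp1, a secreted Wnt inhibitor, of 0.12 (-0.23 to 0.47). Of 28 arterial identity genes, 25 passed the filter, none was higher and 2 were lower, with a median of 0.12. Of all genes 0.170% were called higher and 0.131% lower. Edn1, the vasoconstrictor peptide of the endothelium, gave 5.33 and 4.63 CP10K against 2.52, 3.05 and 1.30 (log2 difference -1.16 ± 0.253, adjusted p = 0.00506). Its call was lost without Apoe-/- replicate 1 or 2, or replicate 3 labelled Oasl1-/-Apoe-/-. Mgp, an extracellular inhibitor of calcification, gave 117 and 98.0 against 87.9, 88.5 and 67.5 CP10K (-0.41 ± 0.0930, adjusted p = 0.0123), and was lost without Apoe-/- replicate 1, or replicate 2 or 3 labelled Oasl1-/-Apoe-/-. The connexins Gja4 and Gja5, the Notch ligand Dll4 and the transcription factor Sox17 overlapped between the groups. Edn1 was also the only gene called among 20 genes of vessel tone and haemostasis that passed the filter.

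No member was called in the lists of growth factor receptors of the VEGF and angiopoietin family (8 tested outside the rule, median 0.14), BMP and TGF-beta signalling (17, 0.11), basement membrane and elastic matrix (18, 0.08), tight and gap junctions (14, -0.25) and lipid handling (11, -0.32). Apoe itself, at 1.19 ± 0.312 CP10K (SD, n = 2) against 0.932 ± 0.199 (SD, n = 3), overlapped between the groups. Of 4 tested venous and capillary genes and 2 lymphatic genes none was called. Vwf, the carrier of factor VIII, had a log2 difference of -0.01 (-0.40 to 0.38). In 13 tested genes of the endothelial to mesenchymal transition, Acta2 and Tagln were the 2 called, both lower, against 0.131% of all genes. Of 21 immediate early genes, 1 was called lower, against 0.131% of all genes, and none higher. Their median was -0.29, and 7 were lower without overlap, against 10.8% of all genes. The called gene was Zfp36, tristetraprolin, with 16.5 and 16.3 against 10.8, 11.9 and 8.86 CP10K (-0.65 ± 0.156, adjusted p = 0.0231), which was lost without Apoe-/- replicate 1 or 2, or replicate 3 labelled Oasl1-/-Apoe-/-. Of 11 clock genes, 1 was called higher, against 0.170% of all genes, and none lower. It was the output factor Dbp, with 0.573 and 0.245 against 1.52, 1.34 and 2.26 CP10K (1.87 ± 0.374, adjusted p = 0.00101). Dbp was lost without Apoe-/- replicate 2 or replicate 3 labelled Oasl1-/-Apoe-/-. The share of smooth muscle cells with a Dbp UMI was 10.2% and 28.6%, beside 8.98% and 29.6% of the Klk10/Stmn2 cells. Other called genes were the translationally controlled tumour protein Tpt1 (70.2 and 62.7 against 45.1, 46.8 and 41.1 CP10K, -0.58 ± 0.103, adjusted p = 7.05e-05) and the ribosomal protein gene Rps27 (18.6 and 22.2 against 26.2, 30.8 and 30.8, 0.52 ± 0.127, adjusted p = 0.0259), whose reads may be shared with processed copies. Tpt1 was lost without Apoe-/- replicate 1, and Rps27 without that library or replicate 2 or 3 labelled Oasl1-/-Apoe-/-.

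Smooth muscle transcripts were lower in all 3 libraries labelled Oasl1-/-Apoe-/-, least so in replicate 1, and most of them sat in few cells. Acta2, smooth muscle actin, gave 12.8 and 13.9 CP10K in the Apoe-/- libraries and 8.87, 2.54 and 1.08 in the others, so that replicate 1 lay nearest to the Apoe-/- level. Tagln gave 7.74 and 8.67 against 6.13, 1.42 and 0.615 CP10K, and Myh11, the heavy chain of smooth muscle myosin, 2.07 and 1.96 against 1.70, 0.0991 and 0.190. In the main test 5 of 9 smooth muscle markers were lower (Acta2, Tagln, Tpm2, Myl9 and Myh11, log2 differences from -2.63 to -1.88), none was higher, and 8 were lower without overlap. Of all genes 0.131% were called lower and 10.8% were lower without overlap. The summed level of the list was 31.0 and 34.6 CP10K against 22.9, 5.88 and 3.24, and none of its 10 genes was at 0 in the cells. Cells with 10 or more Acta2 UMIs numbered 6 and 6 in the Apoe-/- libraries and 2, 1 and 0 in the others, and in the Apoe-/- libraries they held 91.4% of the Acta2 UMIs. In the cells under 10 Acta2 UMIs the level was 2.17 and 2.46 against 1.38, 1.90 and 1.08 CP10K. With a fit that gives genes with an outlying spread their own variance, only Myh11 of the 5 remained called. None was called without replicate 3 labelled Oasl1-/-Apoe-/-.

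Haemoglobin transcripts were also lower in all 3 libraries labelled Oasl1-/-Apoe-/-, with replicate 1 the lowest. The summed level of 6 red blood cell genes was 1.98 and 2.56 CP10K against 0.158, 0.776 and 0.342, with Alas2 listed at 0. Hbb-bs gave 1.21 and 1.30 against 0.0351, 0.776 and 0.252 CP10K (-1.97 ± 0.491, adjusted p = 0.0373), was called without replicate 2 labelled Oasl1-/-Apoe-/- but not without any other library, and its reads may be split with its near copy Hbb-bt. A haemoglobin UMI was present in 32 of 91 and 29 of 76 cells against 3 of 40, 8 of 43 and 4 of 32. Of 8 tested fibroblast markers none was called. The sum of all 10 listed fibroblast markers was 8.45 and 9.51 against 8.41, 5.57 and 6.42 CP10K. No lymphocyte or mesothelial marker passed the filter. Their part in the share and in the lower genes was not tested. In the cells with no UMI of Myh11, Dcn, Lyz2 or haemoglobin, which at this depth may still hold such RNA, all 7 antigen presentation genes and Ifi27l2a were called. In these cells 11 genes were called higher and 3 lower, against 13 and 10 under the rule. Most calls of lower genes were thus lost. The restriction itself removes Myh11 and haemoglobin and leaves fewer cells, and the cause of the loss was not tested.

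**Figure D5:**
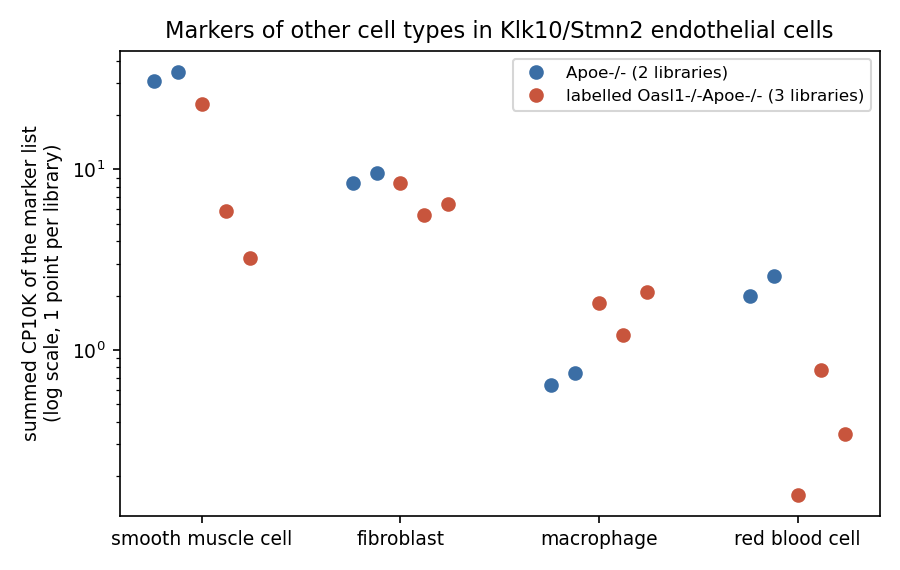
Summed level (CP10K, log scale) of marker lists of smooth muscle cells, fibroblasts, macrophages and red blood cells in the Klk10/Stmn2 endothelial cells of each library; blue points are Apoe-/- and red points libraries labelled Oasl1-/-Apoe-/-. Smooth muscle markers ranged from 3.24 to 34.6 and replicate 1 labelled Oasl1-/-Apoe-/-, at 22.9, lay nearest to the Apoe-/- libraries.

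To ask whether a difference was particular to these cells, the difference between Klk10/Stmn2 cells and the other endothelial cells of the same library was compared between the groups. Of 7192 genes, 11 (0.153%) passed the threshold in limma, and none of the antigen presentation or interferon genes was among them. Cd74 had a difference of differences of -0.01 log2 units (adjusted p = 0.999), with 1.07 against 9.98 CP10K in the other endothelial cells. B2m had -0.02, with 28.4 against 62.2 CP10K, and Ifi27l2a -0.26, with 0.179 against 3.17 CP10K. H2-Aa had 0.62 and H2-Eb1 0.75, also with adjusted p of 0.999. No difference between these and other endothelial cells was thus detectable for these genes. Among the 11 genes, Igfbp5, an insulin-like growth factor binding protein, stood at 0.141 and 0.242 CP10K in the Klk10/Stmn2 cells of the groups and at 0.0928 and 2.26 in the other endothelial cells. Lrg1, a leucine-rich glycoprotein of inflamed vessels, stood at 0.371 and 0.190 against 1.62 and 4.55. The other endothelial cells included the capillary-like cells, whose share differed between the groups as given above, and the part of that share was not tested.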

How the data were processed

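Reads were aligned by the authors to mm10 in Cell Ranger 3.1.0. They filtered cells on gene number and mitochondrial share in Seurat 4.0.3, and DoubletFinder had already been applied to doublets, for which nothing further was done. The deposited table holds 16498 genes in 18260 cells as natural log values of 1 plus UMIs per 10000 UMIs of the cell. Undoing the log gave sums within 0.00344 of 10000, and division by the smallest value of a cell gave whole numbers within 0.01 for 100% of values, taken as UMIs. All columns were assigned to a library by prefix. The labels do not say whether libraries with the same replicate number belong together, and the main test did not pair them.

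The library was the replicate. Mean CP10K per gene over the cells of a library was tested as log2(mean CP10K + 0.1) with limma 3.58.1 (lmFit, eBayes with trend, R 4.3.3), for genes with a mean of at least 0.1 CP10K, with Benjamini-Hochberg adjustment over all genes tested. The comparison with other endothelial cells used the difference within a library. Shares were compared by exact two-sided permutation, and 95% Wilson intervals and all UMI counts cover counting error only. Smooth muscle cells had at least 3 of 5 of Myh11, Acta2, Tagln, Cnn1 and Myl9 and fewer than 3 endothelial genes. Cells were thinned to 1000 UMIs with seed 1, which left out 8 of the Klk10/Stmn2 cells. Gene coordinates are from GENCODE mouse release M21, in which 98.8% of symbols matched 1 gene. Scripts used Python 3.11.15. The fits were also run on simulated counts with the same extra spread for every gene, which cannot judge the calls of genes with an outlying spread.

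The Klk10/Stmn2 cells, the gene lists and the tests were chosen with earlier results of these data known. Named were a fixed panel, in each direction the 12 called genes without overlap that had the largest log2 differences, up to 4 called genes of each list or, with none, its 2 most abundant, and the 15 highest and 5 lowest genes against other endothelial cells. The floor of 0.5 CP10K for these last genes and the counts by Acta2 UMIs and by macrophage UMIs were chosen after the values were seen, as were the genes named outside this rule, among them Gbp3, H2-DMa, H2-T23, Ifit3, Bst2, Usp18, Tap1 and Psmb8. Alternatives were the offset, the filter, limma-voom on summed UMIs, the mean of the log values, median centring, leaving out each library, a replicate block and stricter gates. A gate without conditions on Plvap and Selp, and a robust eBayes, were added after the data were seen. A few genes that the rules would name are not reported here.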

Additional observations from a re-analysis of the deposited data

Results flagged for a closer look

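For 11 genes the group difference in Klk10/Stmn2 cells differed, by limma on the within-library differences, from that in the other endothelial cells (Benjamini-Hochberg adjusted p under 0.05). Values of 10 of them are given. On the log2 scale, as the difference in Klk10/Stmn2 cells minus that in other endothelial cells, the values were -3.41 for Igfbp5, -2.30 for Lrg1, -2.19 for Tpm2, -1.89 for Dcn, -1.53 for Tagln and -1.52 for Acta2. They were 1.03 for 1500015O10Rik, 1.24 for Meg3, 2.66 for Hbb-bs and 3.16 for Hbb-bt. Dcn, a fibroblast proteoglycan, stood at 1.67 and 0.920 CP10K in the Klk10/Stmn2 cells of the Apoe-/- and the other libraries and at 6.49 and 13.2 in the other endothelial cells. Meg3, a long non-coding RNA, stood at 5.04 and 7.51 against 3.71 and 2.55, and 1500015O10Rik at 5.06 and 5.28 against 6.52 and 3.30. For Acta2, Tagln and Tpm2 replicate 1 labelled Oasl1-/-Apoe-/- had differences between the 2 kinds of cells of 0.09, 0.27 and -0.02, within the range or near those of the Apoe-/- libraries, while replicates 2 and 3 lay between -3.77 and -2.22. Hbb-bs in the other endothelial cells gave 15.7 CP10K with an SD of 15.8 over the 2 Apoe-/- libraries.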

How the results depend on the processing

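The number of genes called in the Klk10/Stmn2 cells (23) was 5 without a filter on low values, 15 with a filter at 0.5 CP10K, 48 by limma-voom on summed UMIs, 14 in cells with at least 2 UMIs of Klk10 and Stmn2, 14 in cells free of Myh11, Dcn, Lyz2 and haemoglobin UMIs and 90 without a condition on Plvap and Selp. It ranged from 7 (without replicate 3 labelled Oasl1-/-Apoe-/-) to 29 when a library was left out. The number of genes that differed from other endothelial cells (11) was 4 at an offset of 0.05, 1 with the filter at 0.5, 2 on the mean of the deposited log values, 7 with a robust eBayes, and 5 to 25 when a library was left out. Other settings kept both counts within 1.5 times. The cause of these changes was not tested.

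With a replicate block the counts were 26 and 11, and Edn1 and Zfp36 were not called. Over genes, the deviations of libraries with the same number from their group means had correlations of -0.0100 and -0.0108. The 2 Apoe-/- libraries deviate by equal and opposite amounts, so these are not separate checks. With few cells per library, counting noise can hide a shared deviation, so a pairing is not excluded.

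The share of endothelial cells kept its direction except with the denominator without Plvap, Selp, Ccl21a and capillary cells (5.91). On thinned cells it was -4.59 and the groups overlapped. Its difference ranged from -6.76 to -2.81 when a library was left out, and that of the share of all cells from -1.06 to -0.584.

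Uncalled genes changed sign (log2 differences). On thinned cells Apoe was 0.10, Nos3 -0.26, Klf2 -0.0386, Vcam1 0.0038 and Icam2 0.0415. In cells free of the 4 kinds of UMIs Klf2 was -0.0322 and Klf4 -0.0676. Without a condition on Plvap and Selp Klf2 was -0.0184, Klf4 -0.0003 and Icam2 0.0699. Klf4 was -0.0246 with 4 of 5 endothelial genes and -0.0015 with 2 UMIs. On the mean log values Vcam1 was 0.0079, Icam1 0.0283 and Icam2 0.0280, and Icam1 was 0.0795 by limma-voom. With the replicate block Klf2 was -0.0645 and Icam1 0.0045. When a library was left out, Klf2 ranged from -0.0645 to 0.20, Klf4 from -0.0382 to 0.06, Icam1 from -0.25 to 0.0114, Icam2 from -0.38 to 0.11, Adh7 from -0.65 to 0.0584, Cytl1 from -0.25 to 0.0573 and Sfrp1 from -0.0305 to 0.25.

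Each library held 32 to 91 of the cells, which limits genes of few UMIs such as Sele and Irf7, and 2 against 3 libraries limit the exact permutation p of a share to 0.1.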
